A study of Rattus norvegicus with 11 samples.

Results

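The 5 mature microRNAs (miRNAs) described here, named rno-miR-23a, rno-miR-23b, rno-miR-24, rno-miR-27a and rno-miR-27b on the arrays, come from 2 paralogous gene clusters and were chosen by name, by a rule that uses no measured value, although earlier results of these data were known. The species prefix is left out below. They are 5 of 687 miRNA names on the arrays and 5 of the 340 names carried by both array designs used. The RNA was from islets of 13-week-old female Sprague Dawley rats, harvested from 2 groups of offspring that differed in the diet of the father. In the HFD group (5 arrays) the fathers had eaten high-fat pellets with 43% as fat, and in the Control group (6 arrays) they had eaten standard chow with 9% as fat. All fathers were mated at 15 weeks of age with chow-fed females, and the daughters of both groups were weaned at 3 weeks onto standard chow, so that no daughter was assigned a high-fat diet. The question the comparison addresses is whether the father's diet was followed by a different islet miRNA level in his daughters, whose glucose tolerance the submitters describe as impaired in the HFD group. Which daughters had the same father or litter, and whether islets of several animals were pooled, is not in the labels, so the p-values below treat the samples as independent.

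A miRNA is a short RNA cut from a hairpin precursor that guides the silencing machinery to messenger RNAs, largely through its seed, the stretch of bases 2 to 8 from the 5′ end. The miR-23, miR-27 and miR-24 hairpins lie close together in mammals and each cluster is transcribed as a common precursor. The miR-24 mature strand is made from both clusters with the same sequence, so its level sums both sources. In mouse beta cells miR-24 acts on Neurod1, a transcription factor of the endocrine pancreas, and on Men1, a brake on beta-cell growth. The miR-27 members restrain fat-cell formation, in part through the fat-cell regulator Pparg, and miR-23 represses glutaminase in human cells. Both clusters are also abundant in endothelium, the lining of blood vessels, which runs densely through islets.

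The mature sequences are shown first, because they set how far the probes and the possible targets of paralogs can differ. All 5 names matched a mature sequence in the RefSeq table (GRCr8 build) through the same stem with the suffix -3p. Capitals mark the seed.
miR-23a: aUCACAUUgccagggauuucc
miR-23b: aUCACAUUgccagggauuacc
miR-27a: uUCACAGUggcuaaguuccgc
miR-27b: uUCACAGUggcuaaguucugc
miR-24: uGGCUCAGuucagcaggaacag
miR-23a and miR-23b differ at 1 of 21 bases, U19A counted from the 5′ end (miR-23a first). miR-27a and miR-27b also differ at 1 of 21 bases, C19U (miR-27a first). Each paralog pair thus has an identical seed and differs at the same position near the 3′ end. The miR-23 and miR-27 seeds share 6 of their 7 bases, and the miR-24 seed is unrelated to both. Of 693 mature names in the table, 2 had the miR-23 seed, 2 the miR-27 seed and 1 the miR-24 seed, so no rat miRNA in the table outside the 5 shares any of these seeds. The probe sequences were not used here, so how well the arrays tell a paralog pair apart at a single base was not tested.

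In GRCr8 one cluster spans chr17:1818669-1819482 on the minus strand, 814 bases that hold Mir23b, Mir27b and Mir24-1 in the order of transcription. It lies within the span of Aopep, an aminopeptidase gene on the same strand. The other cluster spans chr19:40859455-40859843 on the minus strand, 389 bases that hold Mir23a, Mir27a and Mir24-2, and no gene of the table spans it. The miR-23b and miR-27b mature strands lie at chr17:1819405-1819425 and chr17:1819163-1819183, and those of miR-23a and miR-27a at chr19:40859778-40859798 and chr19:40859614-40859634. The miR-24 strand lies at chr17:1818672-1818693 and again at chr19:40859481-40859502. The 2 miR-24 hairpins are printed because they carry the same mature arm, in capitals, within different flanks.
Mir24-1: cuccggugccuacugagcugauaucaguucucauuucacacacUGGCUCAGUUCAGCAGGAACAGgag
Mir24-2: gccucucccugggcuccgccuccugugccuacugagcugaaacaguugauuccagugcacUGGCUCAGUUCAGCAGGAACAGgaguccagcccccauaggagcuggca
Among the probes of these arrays only those for the opposite arm of each hairpin, the passenger strand, can tell the clusters apart as sources of miR-24.

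The first array design held 4 HFD arrays (sample numbers 603, 607, 644 and 653) and 4 Control arrays (602, 613, 615 and 639) on 1 slide. The second design held 1 HFD array (640) and 2 Control arrays (635 and 652) on another slide. Each miRNA of the set had 2 probes of 10 spots each, with the same probe identifiers on both designs. All 5 were detected on all 11 arrays, as were 85 of the shared names, and no spot was saturated. HFD 653 stood apart, with 105 shared miRNAs detected against 138 to 157 on the other first-design arrays, and a negative-control spread of 38.2 against 6.38 to 7.53. The spots of the 5 miRNAs varied most on that array (median coefficient of variation 26.1%) and on Control 602 (31.7%), against 8.46% to 13.4% on the other first-design arrays and 2.73% to 3.58% on the second design. Scaled signal is the spot signal summed over a miRNA's probes after each array was brought to the same 75th percentile of the 85 miRNAs detected on every array. It has no absolute unit, and the level of one miRNA cannot be set against that of another, since their probes differ.

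miR-24, the member with a described role in beta cells, read much the same in both groups. Its scaled signal was 2076, 2121, 2157 and 1951 on HFD 603, 607, 644 and 653, against 1636, 2105, 2269 and 2110 on Control 602, 613, 615 and 639. On the second design it was 1822 on HFD 640, against 1542 and 1664 on Control 635 and 652. The first-design groups overlapped, with Control arrays at both ends of the range, while HFD 640 lay above both Control arrays of its design. The first-design means were 2076 ± 89.9 in HFD and 2029.7 ± 274 in Control (SD, n = 4 each). The fitted difference, HFD minus Control with array design as a block, was 0.078 on the log2 scale (SE 0.10, limma adjusted p = 0.987, 11 arrays). Its 95% confidence interval ran from a fold of 0.901 to 1.24, and the difference was 0.010 without Control 602.

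miR-23b, at the 5′ end of the chromosome 17 cluster, was the only one of the 5 whose fitted difference was below 0. It read 4763, 4976, 5255 and 4993 on HFD 603, 607, 644 and 653, against 4276, 5070, 5979 and 5237 on Control 602, 613, 615 and 639. On the second design it read 4796 on HFD 640, against 4474 and 4974 on Control 635 and 652. All first-design HFD values thus fell inside the Control range, and HFD 640 fell between its 2 Control arrays. The means were 4997 ± 201 in HFD and 5140.5 ± 699 in Control on the first design (SD, n = 4 each). The difference was -0.018 (SE 0.10, limma adjusted p = 0.987), with an interval of the fold from 0.847 to 1.15. Its sign turned on leaving out Control 615 (0.039) or HFD 603 (0.00027), so it has no settled direction.

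miR-27b, from the same cluster, followed a like course over the first design. It read 1556, 1647, 1593 and 1436 on HFD 603, 607, 644 and 653, against 1171, 1602, 1706 and 1664 on Control 602, 613, 615 and 639. The Control range enclosed the HFD range, and 3 of the 4 Control arrays lay close together with Control 602 far below them. On the second design it read 2484 on HFD 640, against 2292 and 2454 on Control 635 and 652, so the HFD array was just above both. The fitted difference was 0.043 (SE 0.11, limma adjusted p = 0.987), with an interval of the fold from 0.865 to 1.23. Without Control 602 it was -0.047.

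miR-23a, the chromosome 19 paralog of miR-23b, had the smallest p-value of the 5. It read 387.8, 390.4, 309.3 and 360.7 on HFD 603, 607, 644 and 653, against 333.0, 345.8, 359.6 and 309.9 on Control 602, 613, 615 and 639. On the second design it read 1139 on HFD 640, against 999.8 and 964.5 on Control 635 and 652. HFD arrays held both the highest and the lowest place on the first design, and 3 of the 4 lay above every Control array, HFD 653 by little and with a dimmer probe not well above background. The first-design means were 362 ± 37.6 in HFD and 337 ± 21.1 in Control (SD, n = 4 each). The difference was 0.13 (SE 0.093, limma p = 0.198 before adjustment, adjusted p = 0.987), and the 2-sided exact permutation of group labels within array design gave p = 0.110. Its interval ran from a fold of 0.947 to 1.26.

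miR-27a, from the chromosome 19 cluster, had the widest spread between arrays. It read 315.0, 288.6, 216.5 and 241.9 on HFD 603, 607, 644 and 653, against 191.7, 307.5, 273.1 and 227.4 on Control 602, 613, 615 and 639. The groups interleaved over the whole first-design range. On the second design it read 340.5 on HFD 640, against 268.2 and 280.2 on Control 635 and 652, so the HFD array was on top there. The difference was 0.15 (SE 0.15, limma adjusted p = 0.987), with an interval of the fold from 0.881 to 1.40, and it was 0.069 without Control 602. The authors' deposited log2 table gives 15.26 for miR-27a on Control 652, while log2 of the total signal in that array's own file was 8.61. A fit of the deposited values gave a difference of -0.62 with that cell as deposited and 0.29 with it left out.

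**Figure D1:**
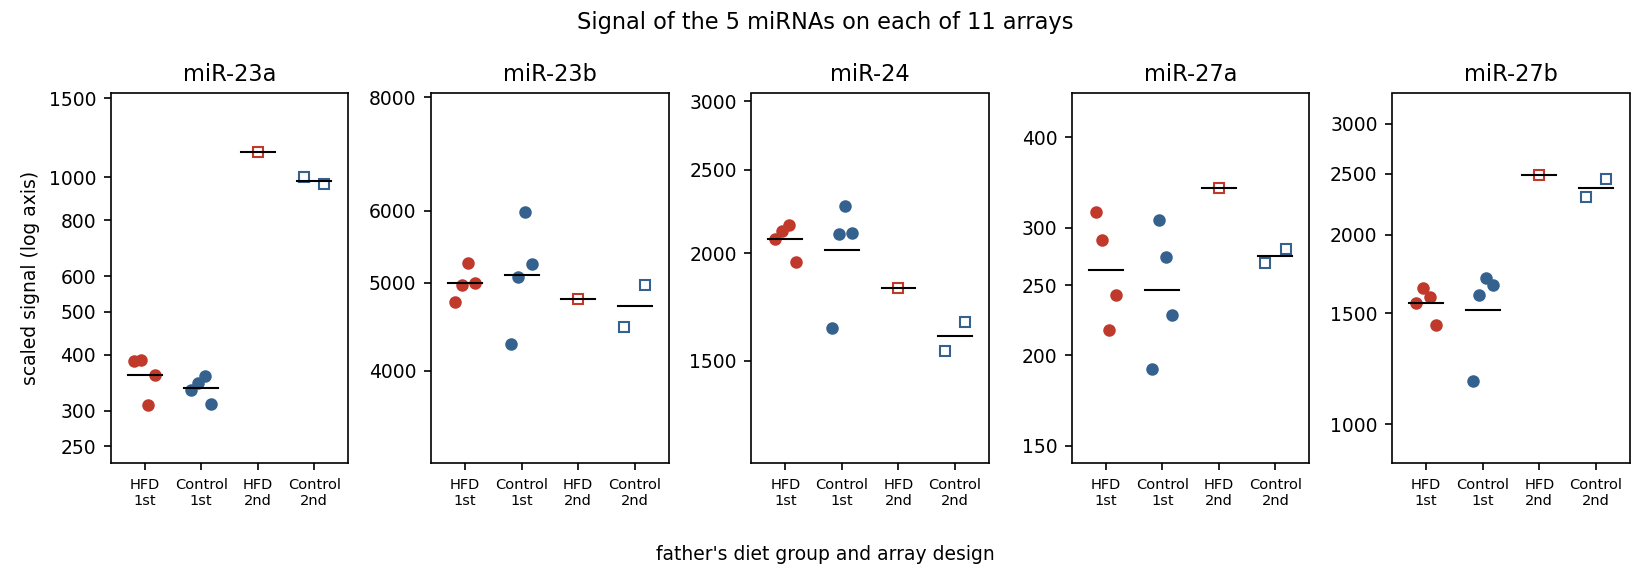
Scaled signal of each miRNA on each array (log axis, with a range of its own in each panel), by father's diet group and array design. Red points are HFD and blue points Control, filled circles the first design and open squares the second, and black lines are means of the log2 values. The HFD and Control arrays overlap on the first design in each panel, and Control 602 is the lowest blue circle for miR-23b, miR-24, miR-27a and miR-27b.

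None of the 5 passed the adjusted threshold of 0.05, and neither did any of the 152 miRNAs detected on at least 5 arrays (0 of 152, 0% by limma and 0% by exact permutation). At an unadjusted p under 0.05 limma called 3 of 152 (1.97%), as did the permutation test, none of them among the 5, whose unadjusted p ran from 0.198 upward by limma and from 0.110 upward by permutation. The smallest p that the 210 arrangements allow is 0.0048. Only miR-150 reached it, and its adjusted p by permutation was 0.72. No miRNA could therefore pass the adjusted threshold by permutation unless many reached the smallest p together. The counts were 4 of 5 above 0 and 1 below, beside 108 of 152 (71.1%) above 0 over all tested miRNAs, and all 5 were below 0 when arrays were scaled by their median or by a 75th percentile that includes undetected miRNAs. The median was 0.078 for the 5 and 0.066 for all 152, so the set sat where the table as a whole sat. HFD arrays stood above all Control arrays of their own design for 1 of 152 miRNAs (0.658%), which was none of the 5.

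The intervals bound how large a change could have passed unseen. For all 5 miRNAs the 95% interval lay within a fold of 1.5 in either direction, with extremes of 0.847 and 1.40. The same held for 83 of the 152 tested miRNAs, and for 64 of the 85 that every array detected. These bounds take the scaling as given and rest on 11 arrays. The differences within each design are plotted beside the fitted ones, where the second design, with 1 HFD array, gave the larger value for each miRNA, for instance 0.31 against 0.095 on the first design for miR-27a and 0.21 against 0.099 for miR-23a. Whether the designs differ in effect was not tested.

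**Figure D2:**
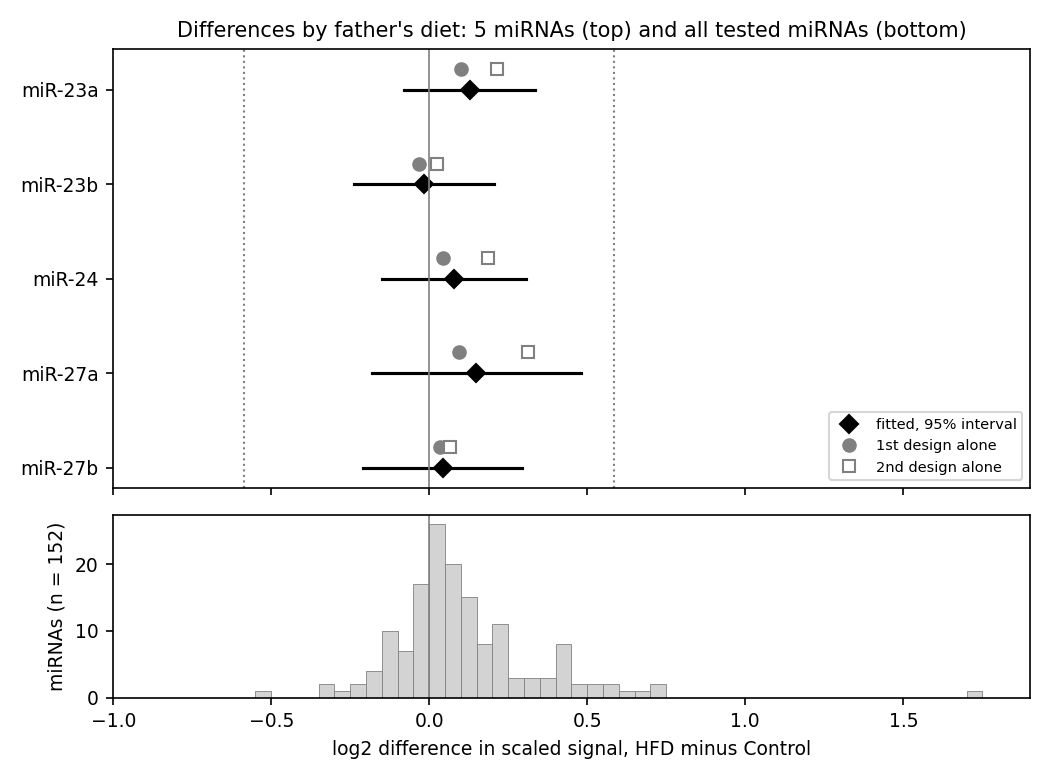
Top, log2 difference in scaled signal, HFD minus Control, for the 5 miRNAs, with fitted values (diamonds) and 95% intervals (bars), first-design differences (grey circles) and second-design differences (open squares). Dotted lines mark a fold of 1.5. Bottom, the same fitted difference for all 152 tested miRNAs. Each interval crosses 0 and stays inside the dotted lines.

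The spread around the fit was small for most of the set. The residual SD on the log2 scale was 0.12 for miR-23a, 0.13 for miR-23b, 0.14 for miR-24, 0.17 for miR-27b and 0.24 for miR-27a. The median was 0.31 over all tested miRNAs, which include some not detected on every array. Over the miRNAs that every array detected, as it did all members of the set, the median was 0.21. Against that median miR-27a was the more variable, and the other members were the less variable. In rank from the least variable, miR-23a was the 6th of 152 and miR-27a the 58th. Over the 8 first-design arrays the highest reading of miR-23a was 1.26 times its lowest and that of miR-27a 1.64 times, while the median over all tested miRNAs was 2.0. Within the first design miR-23b, miR-24 and miR-27b varied less among HFD arrays (SD of log2 0.058, 0.063 and 0.084, n = 4) than among Control arrays (0.20, 0.21 and 0.25, n = 4). For miR-27a the SDs were 0.24 in HFD and 0.30 in Control. miR-23a went the other way, with 0.16 in HFD and 0.091 in Control. For miR-24 and miR-27b the gap rests on 1 array, as without Control 602 their Control SDs were 0.062 and 0.046 (n = 3). That of miR-23b was then 0.13, still above its HFD SD. The difference in spread was not tested. Control 602 was the array whose spots varied most, and whether its low reading comes from the sample or the hybridisation was not tested.

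The probes of a miRNA gave readings in the same direction except for miR-23b on the second design and miR-24 on the first. For the brighter and the dimmer probe the fitted differences were 0.13 and 0.080 for miR-23a. They were -0.0075 and -0.058 for miR-23b, and 0.10 and 0.030 for miR-24. For miR-27a they were 0.13 and 0.21, and for miR-27b 0.018 and 0.12. None of the 213 probes tested passed the adjusted threshold (0%), and 4 passed unadjusted (1.88%), none of the 10 probes shown. On HFD 653 no spot of the dimmer miR-23a and miR-27a probes was well above background (0% of spots), and those probes made up 13.5% of the miR-23a reading and 17.9% of the miR-27a reading on that array.

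The step between designs was larger in size than the fitted difference by diet for every member. The excess was greatest for miR-23a and miR-27b and slight for miR-27a in Control. On the log2 scale the second-design arrays read higher than the first for miR-23a by 1.66 in HFD and 1.54 in Control, and for miR-27b by 0.67 in HFD and 0.64 in Control. The second design minus the first was below 0 for miR-24, at -0.19 in HFD and -0.33 in Control, and for miR-23b, at -0.058 in HFD and -0.11 in Control. For miR-27a the step was 0.37 in HFD and 0.16 in Control. The median step in Control over 148 tested miRNAs with the same probes was 0.23, and miR-23a ranked the 17th highest. The brighter probe read 3.40 to 6.40 times the dimmer for miR-23a on the first design and 2.42 to 2.52 times on the second. For miR-24 this ratio was 1.5 to 1.9 on the first design and 1.01 to 1.04 on the second, for miR-23b 2.62 to 3.16 and 1.23 to 1.31, and for miR-27b 3.16 to 4.37 and 1.52 to 1.61. For miR-27a it was 4.48 to 5.37 on the first design and 2.04 to 2.19 on the second. The 2 probes of each miRNA thus lay nearer to each other on the second design, and design, slide, scan and software version coincide there and cannot be told apart.

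**Figure D3:**
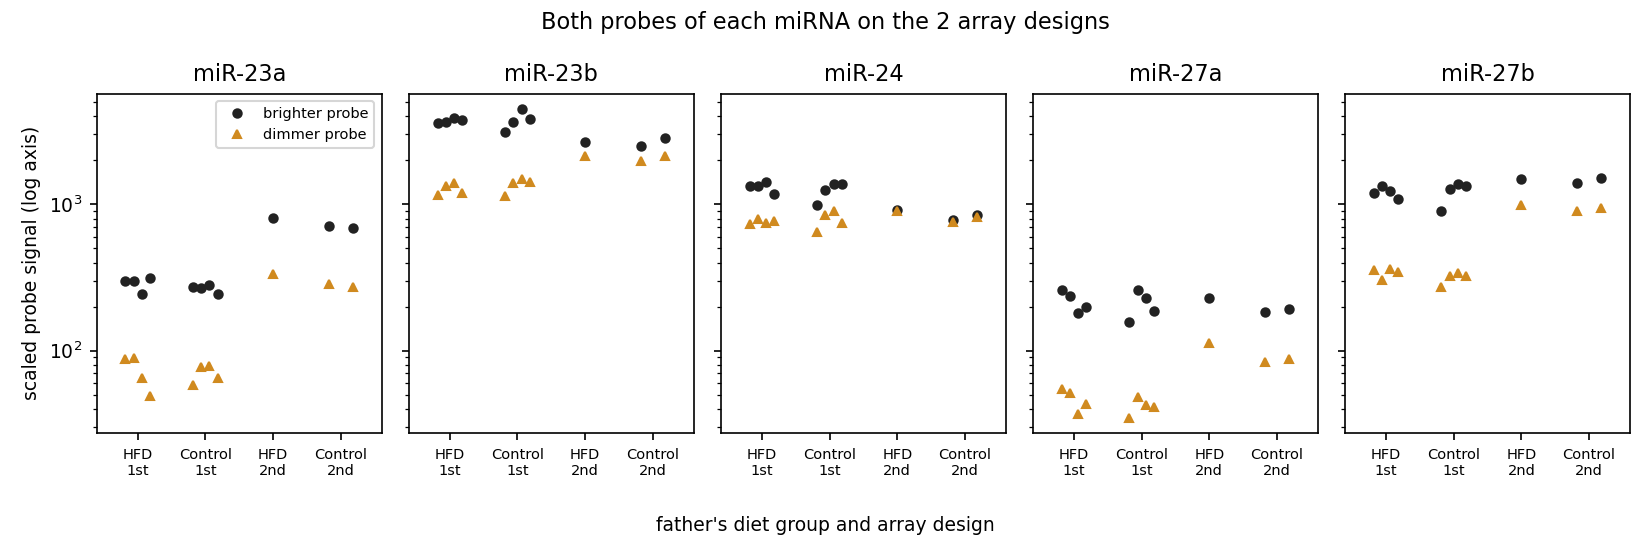
Scaled signal (log axis) of the brighter probe (black circles) and the dimmer probe (orange triangles) of each miRNA, 1 point per array, by father's diet group and array design. The gap between the probes is wider on the first design for all 5 miRNAs, and for miR-24 it closes on the second.

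Ratios between members were taken within each array, where the scaling between arrays cancels, and asked whether the paralog clusters moved apart with the father's diet. They did not pass the threshold for any of the 10 pairs (adjusted p = 0.9997 each, limma over all 11476 pairs of tested miRNAs, of which 0% passed adjusted and 1.89% unadjusted). The log2 ratio of miR-23a to miR-23b averaged -3.79 ± 0.21 in HFD and -3.92 ± 0.18 in Control on the first design (SD, n = 4 each). Its fitted difference was 0.15 (SE 0.16), with an interval of the fold from 0.871 to 1.40. The log2 ratio of miR-27a to miR-27b averaged -2.57 ± 0.24 in HFD and -2.63 ± 0.20 in Control, a fitted difference of 0.11 (SE 0.16) with an interval of the fold from 0.841 to 1.38. Single arrays moved the miR-27a to miR-27b difference widely, to 0.049 without HFD 603, 0.060 without HFD 640, 0.053 without Control 639, 0.19 without HFD 644 and 0.17 without Control 613. Those ratios compare the readings of different probes, so only their change between groups can be read. Over the 10 pairs the fitted difference ran from -0.17 for miR-23b against miR-27a to the 0.15 of miR-23a against miR-23b. The -0.17 was -0.093 without HFD 603, -0.26 without HFD 644 and -0.25 without Control 613.

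The closest pair was miR-24 and miR-27b. Their log2 ratio was 0.42, 0.37, 0.44 and 0.44 on HFD 603, 607, 644 and 653, against 0.48, 0.39, 0.41 and 0.34 on Control 602, 613, 615 and 639. On the second design it was -0.45 on HFD 640, against -0.57 and -0.56 on Control 635 and 652. The ratio was thus nearly constant within a design while both miRNAs ran low on Control 602. After each design's mean was removed its SD over the 11 arrays was 0.051, and 0.0349% of the 11476 pairs had a smaller one. miR-23b with miR-24 had an SD of 0.078 (0.227% of pairs smaller) and miR-23b with miR-27b 0.090 (0.444%). These SDs stayed between 0.042 and 0.096 on leaving out any single array. Among the 3570 pairs in which both miRNAs were detected on every array, the shares with a smaller SD were 0.112%, 0.70% and 1.37% for these pairs. All values are descriptions over 11 arrays whose pairs share arrays and scaling, with no test.

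The pairs that include miR-23a or miR-27a were looser, from 0.16 for miR-23a with miR-24 to 0.24 for miR-23b with miR-27a. Over all pairs the median was 0.49 and the 10th percentile 0.21. Over the 3570 pairs detected on every array they were 0.30 and 0.15, and 13.4% to 33.1% of those had a smaller SD than the looser pairs. miR-23a with miR-27a, the chromosome 19 pair, had 0.17 over 11 arrays, or 0.12 without Control 602. The paralogs with the same seed had 0.19 for miR-23a with miR-23b and 0.19 for miR-27a with miR-27b, inside the range of the looser pairs. The 3 close pairs are thus those of miR-24 with the 2 chromosome 17 members and of those members with each other. Measurement error counts in this SD, and miR-23a and miR-27a include probes with no spot well above background on HFD 653. Without that array the looser pairs ran from 0.17 for miR-23a with miR-24 to 0.25 for miR-23b with miR-27a. The part of error in the looser pairs was not tested.

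**Figure D4:**
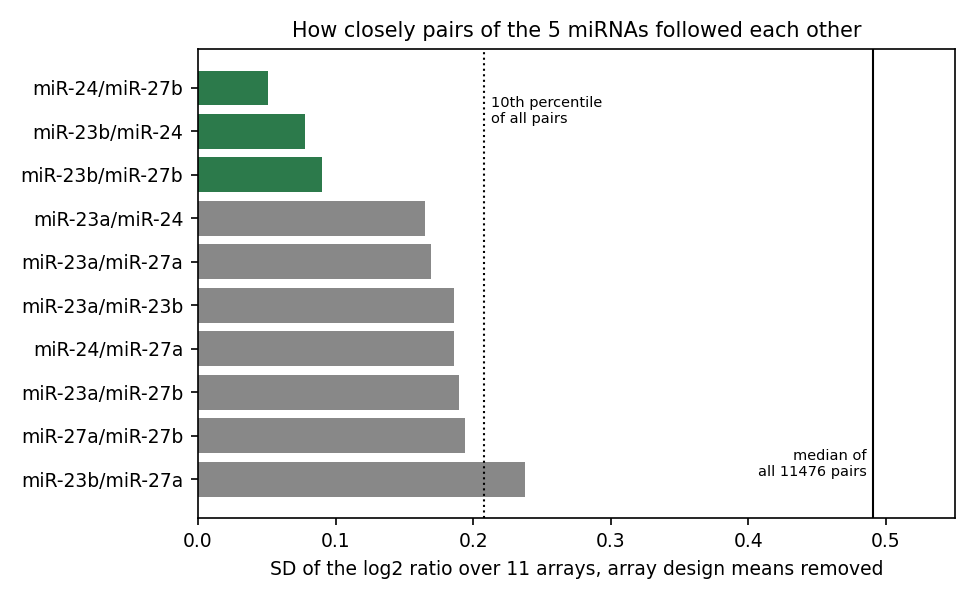
SD of the log2 ratio of 2 members over 11 arrays after each array design's mean ratio was removed. Green bars are the 3 pairs among miR-23b, miR-24 and miR-27b (0.051 to 0.090) and grey bars the 7 pairs with miR-23a or miR-27a (0.16 to 0.24). Lines are the 10th percentile (0.21) and median (0.49) of all 11476 pairs. Over pairs detected on every array these were 0.15 and 0.30, which are not drawn.

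By the same measure the miRNAs most like each member were named over the whole table of 151 others. For miR-24 they were miR-27b (0.051), miR-29a (0.065) and miR-29c (0.066), and for miR-27b they were miR-24 (0.051), miR-30c (0.053) and miR-103 (0.071). miR-23b was followed most closely by miR-103 (0.069), miR-29c (0.077) and miR-24 (0.078). For each of these the nearest included another of them, but always in a pair with miR-24, which both clusters make. Of the members from chromosome 17 alone, miR-27b ranked the 6th for miR-23b. miR-23b ranked the 7th for miR-27b and also for miR-24. For miR-23a the nearest were miR-106b, miR-16 and miR-125b-5p (0.12 each), and its cluster partner miR-27a ranked the 22nd. For miR-27a they were miR-125b-5p (0.16), miR-30c (0.17) and miR-23a (0.17). The median SD to the other miRNAs ran from 0.28 to 0.34 over the 5 members.

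The order of the first-design arrays differed between the members, which was noted after the values were seen. miR-23a was highest on HFD 607 and HFD 603 and lowest on HFD 644 and Control 639. miR-126, a marker of endothelium, was highest on HFD 603 and HFD 607 and lowest on HFD 644 and Control 639. miR-143, 1 of 5 names listed for smooth muscle and fibroblasts, had its extremes on those 4 arrays as well. Of the others on that list, miR-145 was at the floor of 10.3 on every first-design array, and miR-199a-5p was detected on 1 array. The array order of miR-199a-3p and miR-214 was not compared. miR-27a shared HFD 603 at the top, but its lowest array was Control 602, followed by HFD 644. The SD of the log2 ratio to miR-126 over 11 arrays was 0.14 for miR-23a and 0.18 for miR-27a, against 0.26 for miR-24, 0.27 for miR-27b and 0.29 for miR-23b. HFD 603 and HFD 607 lay in row 1 of the slide and HFD 644 and Control 639 in row 2, so slide row and order went together for these arrays. These 4 arrays lay in columns 2 and 3 of the slide, and the remaining first-design arrays in columns 1 and 4. Among the remaining arrays row and order did not go together. There miR-23a read higher on HFD 653 and Control 615, in row 2, than on Control 613 and Control 602, in row 1. The part of the slide position was not tested.

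**Figure D5:**
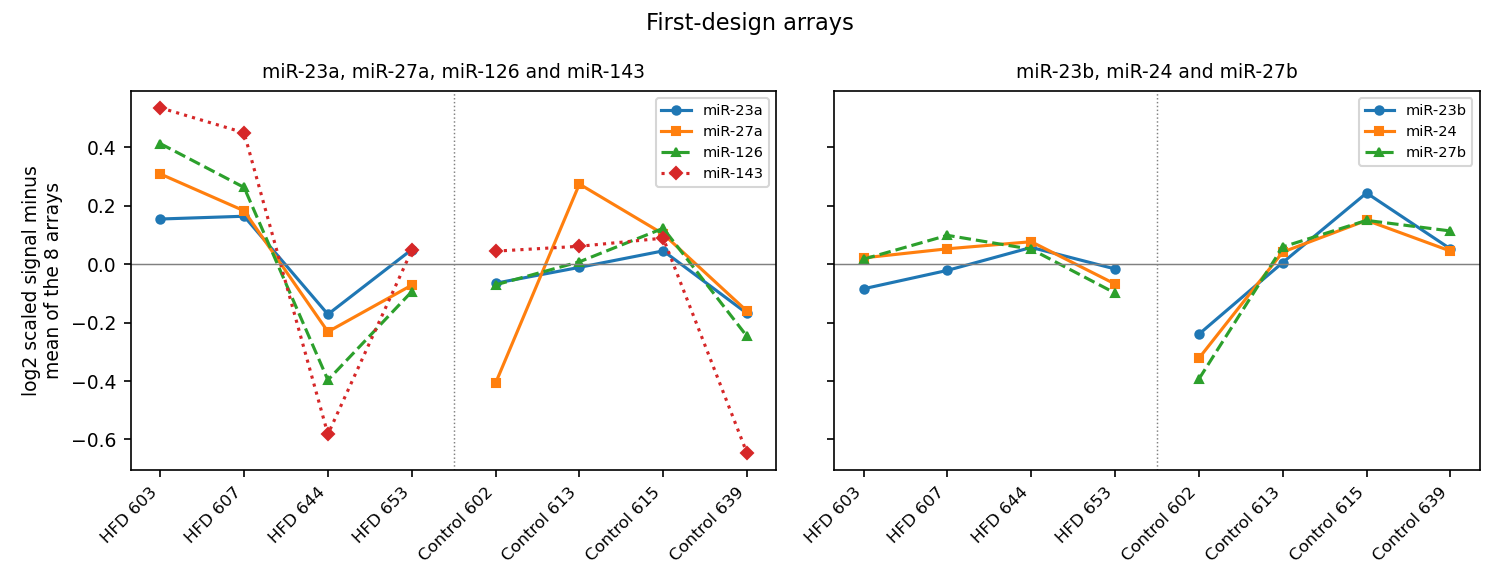
Log2 scaled signal on each first-design array minus the mean of the 8 arrays, HFD arrays left of Control arrays. Left, miR-23a and miR-27a with miR-126 (endothelium) and miR-143 (1 of 5 names listed for smooth muscle and fibroblasts). All 4 are low on HFD 644 and Control 639. Right, miR-23b, miR-24 and miR-27b, which are all lowest on Control 602 and highest on Control 615.

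Of the endocrine markers that should mark islets, miR-375, miR-7a and miR-7b were detected on all 11 arrays. On the first design, to which the following sums refer, their summed scaled signal was 10925 to 13436 in HFD and 10396 to 14743 in Control. The endothelial sum of miR-126 and miR-126* was 350.2 to 613 in HFD and 389 to 502 in Control. Of the acinar miRNAs of the surrounding exocrine pancreas, miR-216a varied widely, from 106 to 666 in HFD and from 21.0 to 618 in Control. miR-217, also acinar, was detected on only 4 of the 11 arrays, 1 HFD and 3 Control. The leukocyte sum over 4 names was 33.6 to 356 in HFD and 33.1 to 40.4 in Control. The fibroblast and smooth muscle sum over 5 names was 272 to 595 in HFD and 263 to 460.3 in Control, and the sum over 2 red blood cell names 0 to 8.14 in HFD and 0 to 5.71 in Control. The liver marker miR-122 was detected on no array and miR-216b-5p, on the second design only, was detected on all 3 of its arrays. The part of these cells in the readings of the 5 miRNAs was not tested, and in bulk RNA fewer cells of a type and less RNA per cell cannot be told apart.

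The passenger strands of the 6 hairpins could show the balance of the clusters, and those of miR-24 are printed because they alone separate its sources. Capitals mark bases 2 to 8.
miR-24-1*: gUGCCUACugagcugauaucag
miR-24-2*: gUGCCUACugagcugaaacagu
Their first 16 bases are the same and they differ only towards the 3′ end. None of the 6 was detected on enough arrays to be tested. miR-24-2* was detected on HFD 640, at a total gene signal of 7.10, and on no other array, while miR-24-1*, miR-23a* and miR-27a* were detected on none of 11 arrays. miR-23b* and miR-27b*, on the second design only, were detected on none of its 3 arrays. The share of miR-24 from each cluster could therefore not be told from these arrays.

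Of 5 miRNAs chosen because they sustain insulin expression in mouse beta cells together with miR-24, 4 were tested and none passed the threshold (0% of all tested). miR-26a had a difference of -0.024 (SE 0.10), miR-26b -0.014 (SE 0.070) and miR-182 0.14 (SE 0.21), each with a limma adjusted p of 0.987. The miR-26b value is set by the scaling, which gave it the same value on every first-design array. miR-148b, named miR-148b-3p on the arrays, had -0.51 (SE 0.49, limma adjusted p = 0.987). It read 53.4, 83.5, 81.1 and 12.5 on HFD 603, 607, 644 and 653, against 40.8, 87.7, 101.8 and 91.3 on Control 602, 613, 615 and 639. The groups overlapped and the value rests on HFD 653, the only array that did not detect it, as the difference was -0.034 without that array. Without HFD 653 the differences of miR-182 and miR-26a also turned, to -0.0059 and 0.018. miR-148a was not analysed here. Of 4 vascular names 1 was tested, miR-126, with a difference of 0.10 (SE 0.15, limma adjusted p = 0.987), or 0.014 without HFD 603 and 0.21 without HFD 644. miR-126* was detected on 3 arrays, miR-221 on 1 and miR-222 on none.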

How the data were processed

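Per the labels' protocols, Cy3 was attached to 100 ng of islet RNA from each sample for Agilent arrays read in 1 colour. The deposited spot intensity was background-subtracted and detrended by Agilent Feature Extraction (first design, version 10.5.1.1, and second design, version 10.7.3.1), per the file headers. The authors also deposited a log2 table for each design, which here served only as an alternative, because 7 of its cells, 1 of them of miR-27a, were more than 0.01 from the log2 value of the array's own file. The submitters' processing notes list RMA and Partek, whose role is not given in the sources used here.

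Spots without an outlier flag were averaged per probe and probes summed per miRNA. The 75th percentile of the 85 miRNAs that all arrays detected set the scale of each array, values below 10.3 (the 1st percentile of detected values after scaling) were raised to that floor, and log2 was taken. limma 3.58.1 in R 4.3.3 fitted group with array design as a block over 152 miRNAs detected on at least 5 arrays, with Benjamini-Hochberg adjustment. The fit was tested on simulated data. Group labels were also permuted exactly within design (210 arrangements). The number of arrays limits the precision. No 2 arrays held identical values. The files have no mean-signal column, so the normexp alternative used median spot and background signals. Named miRNAs are the 5 members, the 3 tested miRNAs with the smallest SD of the log2 ratio to each, and fixed lists of passenger strands, insulin-related and vascular miRNAs and cell type markers. The members and lists were chosen with earlier results of these data known.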

Additional observations from a re-analysis of the deposited data

Results flagged for a closer look

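Among the first-design groups of 4 arrays, 30 sets of values (the 5 miRNAs and their 10 ratios in each group) were checked for 1 array far from the rest, measured as its gap to the nearest other array over the whole range. Chance would place about 1.5 of 30 past Dixon's 95% critical value for 4 arrays, and 3 were past it. miR-27b on Control 602 had a ratio of gap to range of 0.833, with a log2 scaled signal of 10.19 against 10.65 to 10.74 on the other Control arrays. The log2 ratio of miR-23a to miR-24 on HFD 644 had 0.943, at -2.80 against -2.44 to -2.42 on the other HFD arrays. The log2 ratio of miR-23b to miR-27a on Control 613 had 0.848, at 4.04 against 4.45 to 4.53 on the other Control arrays. A signal outside the 5 miRNAs was the passenger strand miR-24-2* on HFD 640, with a total gene signal of 7.10, while neither Control array of that design detected it. HFD 640 also detected more shared miRNAs, 184 against 130 on Control 635 and 163 on Control 652. Whether this bears on that single detection was not tested.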

How the results depend on the processing

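No alternative brought any of the 5 miRNAs past the adjusted threshold, with the lowest adjusted p at 0.801 over 31 alternatives each. Signs were less firm: 27 of 31 alternatives kept that of miR-23a, 25 of miR-23b, 29 of miR-24, 27 of miR-27a and 26 of miR-27b. These counts include settings that could not turn a sign, as a higher floor and other detection filters left each difference the same. The first design alone gave the same differences as leaving out HFD 640, and slide row as a block the same as leaving out Control 652. Taking the 75th percentile over all names common to both designs, detected or not, gave -0.097 for miR-23a, -0.15 for miR-24, -0.075 for miR-27a and -0.18 for miR-27b. Median scaling gave -0.025, -0.075, -0.0034 and -0.11 for the same 4. None of the 5 was above 0 under either (0 and 0), where 23.7% and 32.2% of all tested miRNAs were above 0, as were 31.6% under quantile normalisation and 88.2% with no scaling, against 71.1% in the reported setting. The first of these scalings moved the median over all tested miRNAs by -0.21, median scaling by -0.15 and quantile normalisation by -0.13. Quantile normalisation gave -0.039 for miR-27a and the RMA-like summary -0.0083 for miR-23a and -0.012 for miR-27b, with 2 of 5 above 0. Without the design block miR-23a had -0.084 and miR-27b -0.045, again with 2 of 5 above 0. miR-23b turned to 0.055 with no scaling, where 1 miRNA of the table passed the threshold, to 0.063 in the deposited tables with or without the altered cells, and to 0.0097 without both HFD 653 and HFD 603. The deposited tables as they stand gave -0.62 for miR-27a, through 1 altered cell.

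Leaving out 1 array at a time gave 0.099 to 0.18 for miR-23a, -0.077 to 0.039 for miR-23b, 0.010 to 0.12 for miR-24, 0.069 to 0.23 for miR-27a and -0.047 to 0.084 for miR-27b, with 3 to 5 of 5 above 0 and 0 miRNAs past the threshold each time. The low ends for all but miR-23a came without Control 602. The log2 ratio of miR-23a to miR-27a, -0.021 over all arrays, was 0.0044 on the first design alone and -0.092 to 0.058 with 1 array left out. Apart from leaving out arrays and the altered cell, the causes of these turns were not tested. Slide row as a block and single probes were added after seeing the data, as were leaving out dim miRNAs for the SD of ratios, and leaving out arrays for that SD and for the listed miRNAs. No paired analysis was possible because the sample numbers in the labels are not shared between groups. The second design, with 1 HFD array, limits what can be said of it alone.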
